A study of Mus musculus with 24 samples.

Results

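The cerebellar levels of 7 protein-coding genes were followed across mice with and without expanded Atxn1: Myo15, Ccdc63, Il20rb, Rasal1, Car9, Nr0b2 and Unc13d. They were picked because their level dropped in SCA1 mice, so the size of that drop is given here as a description and was not tested. The count files listed 54232 genes, 22502 genes had enough counts to be tested, and all 7 picked genes were among these. RNA from the whole cerebellum of 24 mice at 6 weeks of age was sequenced, with 1 library per mouse. The mice were on a C57BL/6J background and differed at Atxn1. There were 8 WT mice with a pair of unexpanded Atxn1 alleles, 4 SCA1 mice with 1 knockin Atxn1 allele that carries a long CAG repeat beside 1 unexpanded allele, 4 SCA1 S776A mice with the S776A change on the expanded allele only, 4 S776A double mice with S776A on both the expanded and the unexpanded allele, and 4 WT S776A homozygous mice with S776A on both unexpanded alleles. S776A was made by genome editing and replaces a serine that can be phosphorylated with alanine. The labels do not give the founder line of a mouse.

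SCA1 (spinocerebellar ataxia type 1) is caused by a lengthened glutamine tract in ATXN1, a nuclear protein that works with the transcriptional repressor capicua, and Purkinje cells of the cerebellum are among the cells most affected. The 7 genes do not form a pathway. Myo15 and Ccdc63 encode parts of the actin and dynein machinery, Il20rb and Rasal1 act in signalling at the cell membrane, Car9 is an enzyme at the cell surface, Nr0b2 is a nuclear receptor that represses other nuclear receptors, and Unc13d prepares secretory granules for release.

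Between 62163600 and 88430180 fragments fell on genes in each library. The text of the study describes a pair of sequencing batches without saying which library was in which, so the batch was inferred from how many fragments were unmapped, multimapping, ambiguous or outside genes, with no gene used. Batch 1 held 16 mice (4 WT and all SCA1, SCA1 S776A and S776A double mice) and batch 2 held 8 (4 WT and the 4 WT S776A homozygous mice). Libraries of batch 1 had 9.516% to 12.01% of their fragments outside genes, and those of batch 2 had 5.234% to 6.31%. Atxn1 itself stood at 50.8 ± 2.22 in the batch 1 WT mice and 58.8 ± 3.65 in SCA1 mice (CPM, counts scaled to library size, SD, n = 4 each), and counts per gene show neither the repeat length nor the S776A change, so the labelled genotypes were not checked by it. Levels below are CPM scaled by TMM factors, and the number of a mouse within its genotype only names it.

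The stretches just before the annotated starts of Nr0b2 and Myo15 are shown because these were the 2 picked genes whose RefSeq and GENCODE starts coincide. The RefSeq promoter table (build GRCm38.p6) held 4 of the 7 genes. Both stretches are 250 bases long, on the plus strand, 5′ to 3′, at chr4:133553126-133553375 for Nr0b2 and chr11:60469089-60469338 for Myo15. Capitals mark TCAATGAA on either strand (TTCATTGA read from the other strand), which with TGAATGAA is an octamer that capicua is known to bind.
Nr0b2: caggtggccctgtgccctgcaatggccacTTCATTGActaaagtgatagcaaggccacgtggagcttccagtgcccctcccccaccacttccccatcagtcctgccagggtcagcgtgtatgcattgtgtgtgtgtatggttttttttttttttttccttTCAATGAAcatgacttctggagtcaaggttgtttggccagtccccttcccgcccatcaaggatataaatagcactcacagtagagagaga
Myo15: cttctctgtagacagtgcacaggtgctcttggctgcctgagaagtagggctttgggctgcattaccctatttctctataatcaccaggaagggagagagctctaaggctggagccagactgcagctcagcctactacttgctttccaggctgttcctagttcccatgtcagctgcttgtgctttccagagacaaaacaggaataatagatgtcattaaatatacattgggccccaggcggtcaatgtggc
Nr0b2 held TCAATGAA in 2 places, 1 on each strand, and Myo15 held neither octamer. Counted from the start along the plus strand as printed, the leftmost capital was at -90 for the plus-strand match. It was at -221 for the minus-strand match. The RefSeq windows of Car9 and Il20rb, which are not printed, held neither octamer. Across 32851 RefSeq promoters, 0.642% of windows of this length held TCAATGAA on either strand, 1.08% held TGAATGAA and 1.70% held at least 1 of these octamers. AGGTCA, the core site of many nuclear receptors, was in 14.0% of them and in neither printed stretch. A match of letters is a description, and binding was not measured.

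In the WT mice of batch 1 the 7 genes spanned low to moderate levels. Per kilobase of merged exon sequence, Il20rb was highest at 15.9 ± 1.46 CPM per kb, before Rasal1 at 6.89 ± 0.60, Car9 at 4.87 ± 0.28, Unc13d at 2.71 ± 0.26, Ccdc63 at 1.36 ± 0.12, Nr0b2 at 1.01 ± 0.16 and Myo15 at 0.654 ± 0.093 (SD, n = 4 each). The order in SCA1 mice was the same, from 9.42 ± 0.96 CPM per kb for Il20rb to 0.185 ± 0.025 for Myo15 (SD, n = 4). In both groups the ranges of genes next to each other in this order did not overlap. Nr0b2 rested on the fewest fragments, between 26 and 105 per library, and Il20rb on the most, between 2542 and 4945.

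**Figure D1:**
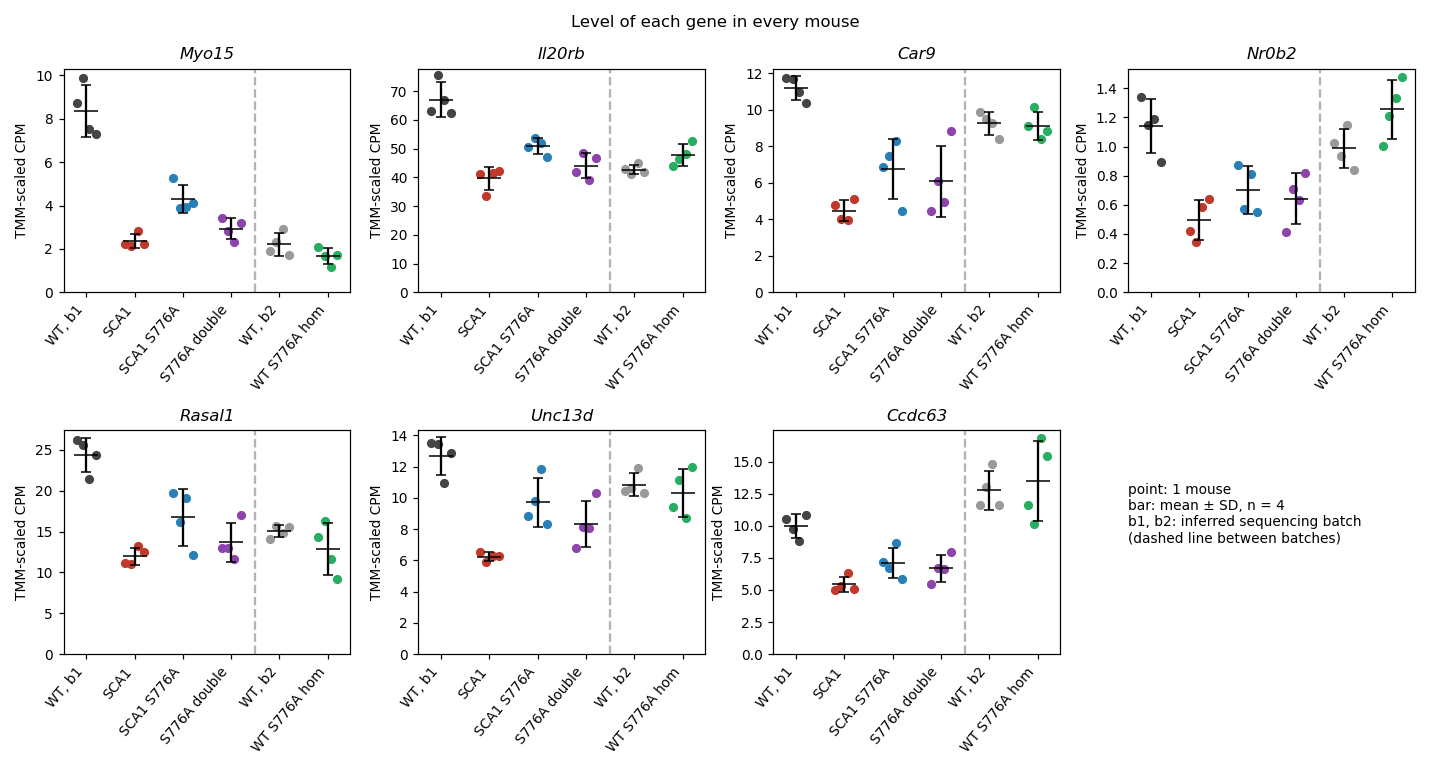
Level of the 7 genes in each of the 24 mice, in TMM-scaled CPM on linear axes that start at 0, by genotype and inferred batch (b1, b2). Points are mice and bars are the mean ± SD (n = 4). Every SCA1 mouse lies below every WT mouse of batch 1 for each gene, and the WT mice of batch 2 stand near the SCA1 mice for Myo15 and Il20rb but above all of them for Car9, Nr0b2, Rasal1, Unc13d and Ccdc63.

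In SCA1 mice the 7 genes stood at 28.3% (Myo15) to 59.1% (Il20rb) of their level in the WT mice of batch 1. The median log2 fold change was -1.03, against 0.0016 over all 22502 genes. All 7 were below every WT mouse of that batch in every SCA1 mouse. Over all genes 4.99% were separated in this way, and 0.138% passed as lower, with an adjusted p below 0.01 and a log2 fold change beyond 0.5 in size. Since the genes were picked for this drop, nothing is read from these shares. Of 24 coding genes that passed as lower, the 17 that were not picked ranged from -1.89 (Chrnb4) to -0.50 (Mmp17). The smallest picked drop was that of Il20rb at -0.76, next to Clstn2 at -0.76 and the noncoding Gm5083 at -0.73. In whole tissue, fewer cells of a type and less RNA per cell cannot be told apart.

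Myo15 encodes an unconventional myosin that carries proteins to the tips of the stereocilia of hair cells in the inner ear. It lies on chromosome 11 (60469339 to 60528369, plus strand, GRCm38). In WT mice 1 to 4, all of batch 1, it had 8.71, 9.88, 7.52 and 7.30 CPM. In SCA1 mice 1 to 4 it had 2.24, 2.11, 2.84 and 2.25 CPM. All SCA1 mice were thus far below all of these WT mice, with a log2 fold change of -1.82 (SE 0.17). SCA1 S776A mice had 5.28, 3.87, 3.95 and 4.10 CPM, and S776A double mice 3.40, 2.80, 2.30 and 3.22 CPM. SCA1 S776A mice lay in the gap between SCA1 and WT without touching either, whereas the S776A double mice overlapped the SCA1 mice. No other unconventional myosin passed the test. Of 23 listed relatives, 21 were tested and 0 passed in either direction in SCA1 mice, with a median log2 fold change of -0.04. Myo5a and Myo6, the most abundant of them, had -0.17 (SE 0.09, adjusted p = 0.652) and -0.03 (SE 0.05, adjusted p = 0.921) (edgeR's quasi-likelihood test, adjusted by Benjamini-Hochberg over all genes). The 4 genes whose proteins work with Myo15 in stereocilia (Whrn, Eps8, Gpsm2 and Gnai3) gave 0 calls, with Eps8 at 0.11 (SE 0.09, adjusted p = 0.820, same test) and Whrn at -0.16 (SE 0.15, adjusted p = 0.839).

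Ccdc63 encodes a coiled-coil protein related to the docking complex of outer dynein arms and needed for sperm flagella. Its place is chromosome 5 (122108040 to 122140823, minus strand). In the WT mice of batch 1 it had 10.6, 9.76, 8.81 and 10.8 CPM, and in SCA1 mice 5.01, 5.28, 6.33 and 5.08 CPM. The log2 fold change was -0.88 (SE 0.15). SCA1 S776A mice had 7.16, 6.74, 8.69 and 5.82 CPM, and S776A double mice 5.45, 6.69, 6.63 and 8.00 CPM. Both rescue genotypes stayed below these WT mice, and both overlapped the SCA1 mice. Of its exon bases, 60 of 7351 (0.816%) are shared with Myl2 on the opposite strand. The counts did not use strand, so fragments there cannot be told apart. Of 9 further genes of outer dynein arms and their docking complex, 7 were tested and 0 passed in SCA1 mice. Dnai1 and Dnai2 were not found under these symbols, so their counts were not looked at. Dnah11, a dynein heavy chain and the most abundant, had a log2 fold change of -0.34 (SE 0.10, adjusted p = 0.193, edgeR), and Ccdc114, a docking complex subunit, had 0.39 (SE 0.20, adjusted p = 0.622). Markers of ependymal cells, which bear motile cilia, summed to 12.0 to 25.4 CPM in these WT mice and 13.4 to 27 CPM in SCA1 mice, with none of the 5 markers at 0.

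Il20rb encodes a subunit of the receptors for the cytokines IL-19, IL-20 and IL-24. It lies on chromosome 9 (100457719 to 100486788, minus strand). WT mice of batch 1 had 63.2, 75.7, 66.9 and 62.3 CPM, and SCA1 mice 41.1, 33.6, 41.4 and 42.3 CPM. This was the smallest drop of the 7 (log2 fold change -0.76) and the one with the smallest SE (0.08). SCA1 S776A mice had 50.7, 53.6, 51.8 and 47.0 CPM, and S776A double mice 42.0, 48.4, 39.1 and 46.7 CPM. As for Myo15, the SCA1 S776A mice were apart from both SCA1 and WT, and the S776A double mice overlapped the SCA1 mice. Il20ra, which encodes a partner chain, was expressed at a mean of only 0.262 CPM over the 24 mice. It had a log2 fold change of 0.02 (SE 0.33, adjusted p = 0.994, edgeR). Of 15 related receptors, ligands and signalling partners, 10 were tested and 0 passed in SCA1 mice. Jak1, a kinase bound to such receptors, had -0.08 (SE 0.07, adjusted p = 0.833) and Ifnar1, an interferon receptor chain, -0.03 (SE 0.06, adjusted p = 0.919).

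Rasal1 encodes a GTPase-activating protein that switches off Ras when calcium rises. Its place is chromosome 5 (120648812 to 120679597, plus strand), 1.43 Mb from Ccdc63. The WT mice of batch 1 had 26.2, 25.6, 21.4 and 24.3 CPM, and SCA1 mice 11.1, 11.1, 13.2 and 12.5 CPM (log2 fold change -1.03, SE 0.15). The SCA1 S776A mice had 19.7, 16.1, 19.1 and 12.1 CPM. SCA1 S776A mouse 4 lay within the SCA1 range while the other 3 lay between SCA1 and WT. S776A double mice had 13.0, 13.0, 11.6 and 17.1 CPM, and only mouse 4 was above all SCA1 mice. The 9 other Ras GTPase-activating proteins gave 0 calls in SCA1 mice, with a median log2 fold change of -0.07. The most abundant, Dab2ip and Rasa3, had -0.18 (SE 0.16, adjusted p = 0.823) and -0.07 (SE 0.06, adjusted p = 0.849, edgeR).

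Car9 encodes a carbonic anhydrase whose active site faces the outside of the cell and whose transcription is known to be induced by low oxygen. It lies on chromosome 4 (43506966 to 43513729, plus strand). The WT mice of batch 1 had 11.8, 11.7, 11.0 and 10.4 CPM, and SCA1 mice 4.80, 4.02, 3.96 and 5.11 CPM (log2 fold change -1.33, SE 0.17). The SCA1 S776A mice had 6.87, 7.45, 8.28 and 4.48 CPM, and S776A double mice 4.47, 6.12, 4.96 and 8.83 CPM. Within each rescue genotype some mice were at the SCA1 level and others well above it. Gm12454, an antisense transcript, covers 214 of the 2304 exon bases of Car9 (9.29%). It was at 0.526 ± 0.181 CPM in these WT mice and 0.250 ± 0.040 CPM in SCA1 mice (SD, n = 4 each), with a log2 fold change of -1.07 (SE 0.29, adjusted p = 0.125, edgeR). Without strand, fragments of the pair cannot be told apart where they overlap. Of 15 other carbonic anhydrases, 13 were tested and 0 passed in SCA1 mice. Car8, by far the most abundant and a Purkinje cell marker, had -0.29 (SE 0.07, adjusted p = 0.096), and Car10 had 0.03 (SE 0.06, adjusted p = 0.934). All 10 listed genes induced by low oxygen were tested and 0 passed. Ldha and Hif1a, the most abundant of them, had 0.08 (SE 0.07, adjusted p = 0.836) and 0.09 (SE 0.08, adjusted p = 0.812).

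Nr0b2 encodes SHP, an orphan nuclear receptor without a DNA-binding domain that is best known for repressing bile acid synthesis in liver. Its place is chromosome 4 (133553376 to 133556536, plus strand). The WT mice of batch 1 had 1.34, 1.15, 1.19 and 0.894 CPM, and SCA1 mice 0.418, 0.343, 0.584 and 0.642 CPM (log2 fold change -1.20). Its SE of 0.22 was the largest of the 7, and its counts were the lowest. SCA1 S776A mice had 0.873, 0.572, 0.814 and 0.551 CPM, and S776A double mice 0.411, 0.707, 0.631 and 0.820 CPM. Both overlapped the SCA1 mice and stayed below the lowest of these WT mice. Of 12 nuclear receptors known as its partners or regulators, 7 were tested and 0 passed in SCA1 mice. Esrra and Esrrg, the most abundant, had -0.02 (SE 0.06, adjusted p = 0.966) and -0.08 (SE 0.09, adjusted p = 0.865, edgeR).

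Unc13d encodes Munc13-4, which primes secretory granules for fusion and is known from cytotoxic lymphocytes. It lies on chromosome 11 (116062095 to 116077961, minus strand). The WT mice of batch 1 had 13.5, 13.5, 10.9 and 12.9 CPM, and SCA1 mice 6.55, 5.88, 6.29 and 6.26 CPM (log2 fold change -1.02, SE 0.12). Levels in SCA1 S776A mice were 8.82, 9.82, 11.8 and 8.35 CPM, and in S776A double mice 6.81, 8.16, 8.05 and 10.3 CPM. Unc13d alone of the 7 had every mouse of both rescue genotypes above every SCA1 mouse, and SCA1 S776A mouse 3 lay within the WT range. Its 9 relatives and partners in granule release were all tested and gave 0 calls in SCA1 mice. The brain forms Unc13c and Unc13a had log2 fold changes of -0.01 (SE 0.07, adjusted p = 0.980) and -0.13 (SE 0.12, adjusted p = 0.837, edgeR). Markers of lymphocytes and natural killer cells summed to 1.6 to 1.9 CPM in the WT mice of batch 1 and 1.6 to 2.2 CPM in SCA1 mice. Only 2 of these 5 markers had enough counts to be tested.

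Over the 9 lists, 106 genes that were not picked were named, 90 were tested, and 0 passed in SCA1 mice. Dnai1 and Dnai2, not found under these symbols, are among the untested genes. The 14 nearest tested genes on either side of the 7 also gave 0 calls, with log2 fold changes from -1.07 (Gm12454) to 0.30 (Cfap73) and a median of -0.08. The next lowest was Myl2 at -0.42 (SE 0.31, adjusted p = 0.784, edgeR), while Drg2, which ends 585 bases before Myo15, was at -0.04 (SE 0.05, adjusted p = 0.879) and Wbp2, 612 bases from Unc13d, at -0.05 (SE 0.09, adjusted p = 0.922). The other 9 (Alkbh5, Sox14, Nck1, Tpm2, Nudc, Gpatch3, Dtx1, Unk and Ppp1cc) lay between -0.24 (Dtx1) and 0.04 (Nudc).

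**Figure D2:**
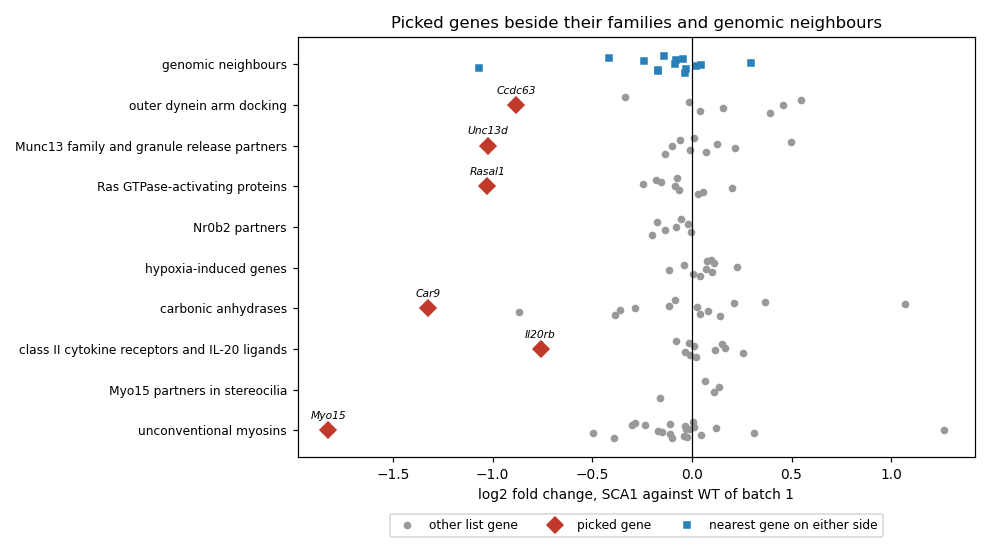
Log2 fold change of SCA1 against the WT mice of batch 1 for the picked genes (red diamonds), the other tested genes of their 9 lists (grey) and the nearest genes on either side (blue), 1 point per gene. Nr0b2 itself, at -1.20, is in no list and is not drawn. The picked genes lie left of the genes listed with them, and none of the grey or blue genes passed the test.

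Markers that define the cerebellum were present, with no Purkinje or granule cell marker at 0 in any mouse. Sums over the markers of some cell types differed alongside the 7 genes. The 10 Purkinje cell markers summed to 7831 to 8987 CPM in the WT mice of batch 1 and to 6096 to 6692 CPM in SCA1 mice, without overlap. Their median log2 fold change was -0.27, and 0 of 10 passed. The 6 markers of molecular layer interneurons summed to 1086 to 1280 CPM in these WT mice and 951 to 1034 CPM in SCA1 mice. Choroid plexus markers varied most, from 21.1 to 1741 CPM in these WT mice and from 894 to 5136 CPM in SCA1 mice. Unipolar brush cell markers stood higher in SCA1 mice, at 1072 to 1104 CPM against 983 to 1066 CPM in these WT mice. Oligodendrocyte markers summed to 6768 to 8318 CPM in SCA1 mice against 6185 to 7406 CPM, with overlap. Bergmann glia and astrocyte markers overlapped too, at 3631 to 4099 CPM against 4074 to 4718 CPM, as did granule cell markers, at 5571 to 6475 CPM against 6473 to 6851 CPM. No marker of these 7 lists was at 0 in any mouse. Their part in the drop of the 7 genes was not tested.

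How much of the drop was left in the rescue genotypes was expressed as the log2 fold change against WT divided by that of SCA1 mice, so that 0% is the WT level and 100% the SCA1 level. The WT and SCA1 mice that picked the genes are in each share, and the rescue genotypes share these controls, so the shares are descriptions without a test. SCA1 S776A mice kept 52.5% of the drop for Myo15, 55.8% for Ccdc63, 52.8% for Il20rb, 52.9% for Rasal1, 55.0% for Car9, 58.2% for Nr0b2 and 37.8% for Unc13d. The median was 52.9%, and Unc13d had the lowest share. S776A double mice kept 82.8% for Myo15, 65.7% for Ccdc63, 79.7% for Il20rb, 81.3% for Rasal1, 66.4% for Car9, 69.4% for Nr0b2 and 59.4% for Unc13d, with a median of 69.4%. In this fit each gene kept more of its drop in the S776A double mice, and Unc13d kept the least in both genotypes. Counts of 1 strand alone, with fewer fragments, turned the first order for Nr0b2 (100% in SCA1 S776A and 66.0% in S776A double mice) and Ccdc63 (60.03% and 58.12%), and put Ccdc63 below Unc13d (58.6%) in S776A double mice. Without the batch term, Il20rb (23.7%) and Myo15 (25.3%) were below Unc13d (30.2%) in SCA1 S776A mice. Shares taken on linear CPM had medians of 63.2% and 77.5%, with Myo15 at 67.6% and 90.5%.

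The groups did not separate for all genes. In SCA1 S776A mice 6 of 7 genes (all but Unc13d) were below every WT mouse of batch 1, against 2.52% of all genes, and 3 (Myo15, Il20rb and Unc13d) were above every SCA1 mouse, against 1.73%. In S776A double mice 7 of 7 were below every one of these WT mice, against 3.54% of all genes, and 1 (Unc13d) was above every SCA1 mouse, against 1.57%. These comparisons share mice with the one the genes were picked on, so nothing is read from the counts.

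The share kept differed between single mice. SCA1 S776A mouse 4 kept 99.2% of the Car9 drop, 98.3% for Rasal1, 87.9% for Ccdc63 and 84.5% for Nr0b2, but 58.7% for Unc13d, 66.6% for Il20rb and 55.9% for Myo15. It had the highest share in its genotype for 6 of the 7 genes. S776A double mouse 4 was the opposite case, with 25.8% for Car9, 29.0% for Unc13d, 35.9% for Ccdc63, 38.1% for Nr0b2 and 49.6% for Rasal1, the lowest share in its genotype for each of these 5. For Myo15 and Il20rb the same mouse kept 75.0% and 67.8%. S776A double mouse 1 had a median share of 88.0% over the 7 genes, and S776A double mouse 3 had 88.2%. For Myo15 and Il20rb the mice of SCA1 S776A spread by an SD of 11.5 and 10.4 percentage points (n = 4), whereas the other 5 genes spread by 21.7 (Unc13d) to 31.3 (Rasal1). In S776A double mice the SD was 13.7 for Myo15, 18.5 for Il20rb and 23.1 to 34.6 for the other 5.

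**Figure D3:**
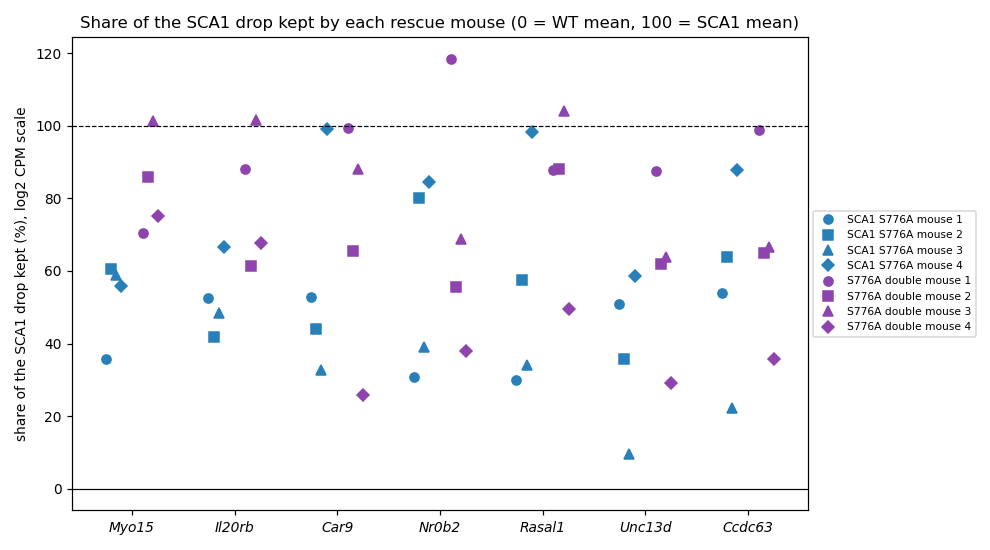
Share of the SCA1 drop kept by each of the 8 rescue mice (y axis, percent on the log2 CPM scale, 0 for the WT mean of batch 1 and 100 for the SCA1 mean) for each gene (x axis). Symbols stand for mouse numbers within a genotype, which do not pair mice across genotypes. SCA1 S776A mouse 4 and S776A double mouse 4 (diamonds) are the highest and the lowest of their own genotype for Car9, Nr0b2, Rasal1, Unc13d and Ccdc63.

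The Purkinje cell sum was 7844 CPM in SCA1 S776A mouse 4 and 7420 CPM in S776A double mouse 4, with 8606 CPM in S776A double mouse 1. Choroid plexus markers summed to 1737 CPM in SCA1 S776A mouse 4, 2528 CPM in S776A double mouse 4 and 25.0 CPM in S776A double mouse 1. The granule cell sum was the lowest of its genotype in SCA1 S776A mouse 4 (5742 CPM) and in S776A double mouse 1 (5612 CPM), and the highest in S776A double mouse 4 (6409 CPM). Endothelial cell markers were highest of the genotype in SCA1 S776A mouse 4 (119.8 CPM) and lowest in S776A double mouse 4 (71.6 CPM), with 100.9 CPM in S776A double mouse 1. The share of mitochondrial fragments was 3.65%, 3.11% and 3.84% in SCA1 S776A mouse 4, S776A double mouse 4 and S776A double mouse 1, the highest, the lowest and the highest of their genotypes. S776A double mouse 3 had 6733 CPM for Purkinje cell markers, 3055 CPM for choroid plexus markers and 6232 CPM for granule cell markers. It had 84.8 CPM for endothelial cell markers and 3.57% mitochondrial fragments. The part of these sums and of mitochondrial fragments in the spread of the shares was not tested.

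The comparison of S776A double with SCA1 S776A mice uses neither SCA1 nor WT mice, and asks whether S776A on the unexpanded allele as well went with another level of the 7 genes. In this fit the log2 fold changes were negative for all 7, with a median of -0.20 against -0.0037 over all genes. Myo15 had -0.55 (95% interval -0.90 to -0.20), Rasal1 -0.29 (-0.60 to 0.019), Unc13d -0.22 (-0.47 to 0.025), Il20rb -0.20 (-0.37 to -0.041), Car9 -0.15 (-0.50 to 0.19), Nr0b2 -0.13 (-0.59 to 0.32) and Ccdc63 -0.09 (-0.39 to 0.21). The sign turned for Nr0b2 and Ccdc63 with counts of 1 strand (0.28 and 0.019), for Nr0b2 without S776A double mouse 1 (0.030) and for Ccdc63 without SCA1 S776A mouse 3 (0.023). None of the 7 passed, with an adjusted p of 1.00 for each over 22502 genes by edgeR's test. No gene of the 22502 passed (0%), and 666 of them, Myo15 and Il20rb included, had an unadjusted p under 0.05. Myo15 was the 1 gene of the 7 for which every S776A double mouse (at most 3.40 CPM) was below every SCA1 S776A mouse (at least 3.87 CPM), a separation that 1.12% of all genes showed. For the other 6 the mice of both genotypes overlapped.

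S776A without the expanded allele was examined in the WT S776A homozygous mice against the 4 WT mice of their own batch. This comparison uses no SCA1 mouse and no WT mouse of batch 1. Whether the WT mice of batch 2 also took part in picking the genes is not known, so independence from the picking is not claimed. Myo15 had 2.10, 1.65, 1.18 and 1.72 CPM in WT S776A homozygous mice and 1.92, 2.32, 2.91 and 1.70 CPM in these WT mice, with a log2 fold change of -0.41 (95% interval -0.78 to -0.049). Nr0b2 had 1.00, 1.21, 1.33 and 1.48 CPM against 1.03, 0.935, 1.15 and 0.839 CPM (0.34, -0.079 to 0.76). Il20rb had 43.8, 46.3, 48.2 and 52.6 CPM against 42.8, 41.0, 45.0 and 41.9 CPM (0.16, -0.0023 to 0.32). The mice overlapped for each of these 3 genes. Rasal1 had 14.4, 16.3, 11.6 and 9.19 CPM against 14.1, 15.8, 14.8 and 15.6 CPM (-0.23, -0.54 to 0.085). Car9 (-0.02, -0.36 to 0.32), Unc13d (-0.07, -0.31 to 0.17) and Ccdc63 (0.08, -0.21 to 0.37) were closest to 0. None of the 7 passed, with adjusted p from 0.485 (Myo15) to 0.970 (Car9) by edgeR's test. Of 22502 genes 0 passed (0%), and 2246, among them 1 of the 7, had an unadjusted p under 0.05. Groups were separated for 0 of the 7, against 1.34% of all genes lower and 1.32% higher. WT S776A homozygous mouse 4, the lowest for Rasal1, had the highest share of mitochondrial fragments of all libraries, 6.734%. It also had the highest sum of oligodendrocyte markers (11514 CPM) and the lowest of molecular layer interneuron markers (830.5 CPM) of all libraries. The part of these differences in its Rasal1 level was not tested.

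**Figure D4:**
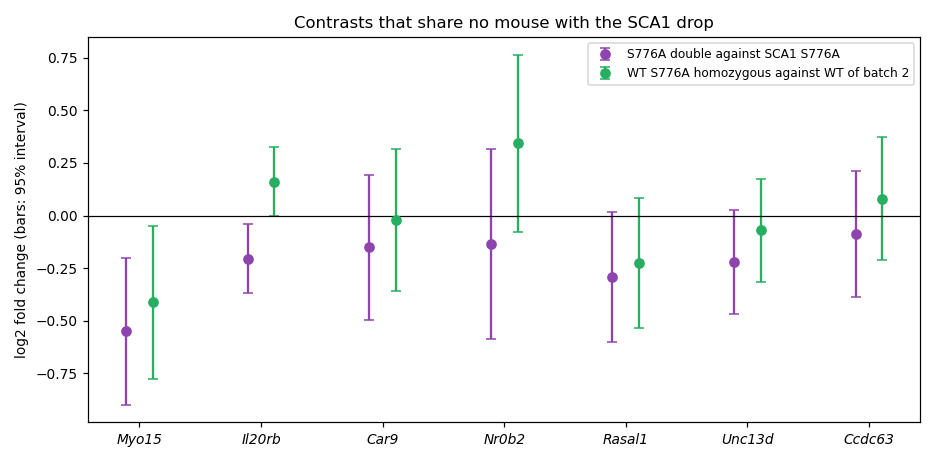
Log2 fold changes with 95% intervals (bars) for the comparisons that share no mouse with the SCA1 drop, S776A double against SCA1 S776A (purple) and WT S776A homozygous against WT of batch 2 (green), 4 mice per group. For Myo15 both intervals lie below 0, and none of the 14 values passed the adjusted test.

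The effect of S776A on the unexpanded allele in the presence of the expanded allele was compared with its effect in its absence in a test of the difference itself. The difference was -0.48 for Nr0b2 (95% interval -1.10 to 0.14), -0.37 for Il20rb (-0.60 to -0.13) and between -0.17 and -0.07 for the other 5. None of the 7 passed, with an adjusted p of 0.997 for each by edgeR's test, nor did any of the 22502 genes (0%), of which 648 had an unadjusted p under 0.05. The effects compare 1 added S776A allele with 2, and each was measured in its own batch.

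For Myo15 the WT mice of the 2 batches differed by as much as SCA1 and WT mice did, and for the other 6 genes by less. The WT mice of batch 1 are among those that picked the genes, so the differences are given as a description. Myo15 had 1.70 to 2.91 CPM in the WT mice of batch 2 and 7.30 to 9.88 CPM in those of batch 1, a log2 difference of -1.91 (SE 0.17) that is 105% of the SCA1 drop. Il20rb had 41.0 to 45.0 CPM against 62.3 to 75.7 CPM (-0.65, SE 0.08), or 85.8% of its drop, and Rasal1 14.1 to 15.8 CPM against 21.4 to 26.2 CPM (-0.70, SE 0.15), or 67.8%. WT mice of batch 2 overlapped the SCA1 mice for Myo15 and Il20rb and lay just above all of them for Rasal1. The remaining genes differed less. Car9 had 8.39 to 9.88 CPM against 10.4 to 11.8 CPM (-0.28, SE 0.16), 20.8% of its drop. Unc13d had -0.23 (SE 0.12), 22.4%, and Nr0b2 -0.21 (SE 0.21), 17.4%, both with overlapping mice. Ccdc63 went the other way, with 11.6 to 14.8 CPM in batch 2 against 8.81 to 10.8 CPM in batch 1 (0.35, SE 0.14), which is -40.1% of its drop.

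Over all genes 14.5% passed as lower and 3.08% as higher in the WT mice of batch 2, and 23.8% and 22.9% had groups that did not overlap. Among the 7, 4 were below (Myo15, Il20rb, Rasal1 and Car9) and 1 above (Ccdc63) without overlap, and nothing is read from these counts. Of the 90 tested genes of the 9 lists, 12 were called lower (among them Myo1a, Myo9b, Whrn, Car11, Unc13b and Dnah11) and 2 higher (Il10rb and Slc2a1) by edgeR's test, shares near those over all genes and so no result about the lists. Apart from WT no genotype was in both batches, so a difference between batches in how a genotype acts cannot be told apart from the genotype. With the batch left out of the fit, so that SCA1 mice stood against all 8 WT mice, the log2 fold change was -1.16 for Myo15, -0.47 for Il20rb and -0.72 for Rasal1. The share kept in SCA1 S776A mice was then 25.3%, 23.7% and 32.8% for these genes. Fitted on the mice of batch 1 alone, the median drop over the 7 genes was -1.03 and the median shares were 52.9% and 69.2%.

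**Figure D5:**
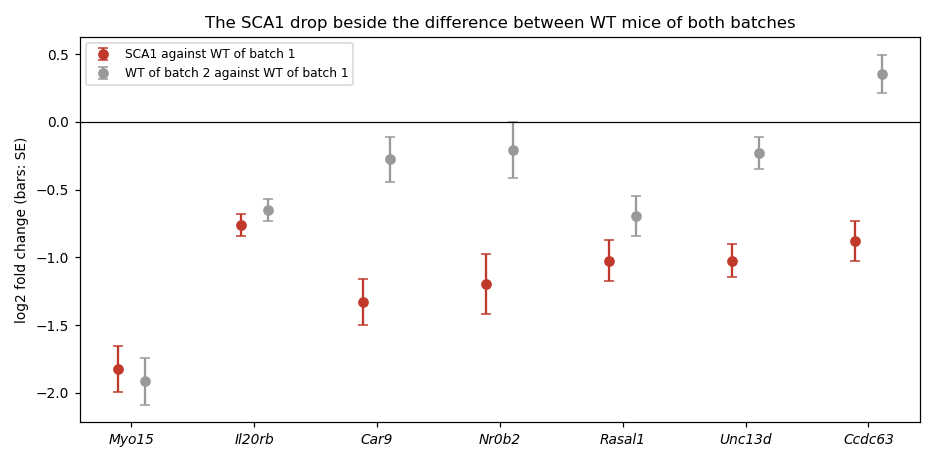
Log2 fold change with its SE (bars) of SCA1 against the WT mice of batch 1 (red) and of the WT mice of batch 2 against those of batch 1 (grey), 4 mice per group. The bars overlap for Myo15 and Il20rb, the grey value is nearer 0 for Car9, Nr0b2, Rasal1 and Unc13d, and it is above 0 for Ccdc63.

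Patterns over the 6 groups of genotype and batch were compared between genes. Likeness was measured by the root mean square (RMS) difference of mean log2 CPM, each gene centred on its own mean over the 6 groups, and it includes the groups that picked the genes. Car9 and Nr0b2 were nearest each other among the 7 (RMS 0.139), as were Il20rb and Rasal1 (0.152). Unc13d was 0.159 from Car9 and Ccdc63 0.163 from Nr0b2, while Myo15 was 0.470 from its nearest, Rasal1. Outside the 7, the closest coding genes were Tssk5 and Bnipl for Il20rb (0.057 and 0.077), Mybpc3 and Kcnh3 for Unc13d (0.069 and 0.090), Rmi2 and Cplx3 for Ccdc63 (0.094 and 0.127), Gsg1 and Prom2 for Rasal1 (both 0.117), Cplx3 and Rmi2 for Nr0b2 (0.127 and 0.149), Igfbp5 and Rprml for Car9 (0.145 and 0.161), and Mei1 and Trcg1 for Myo15 (0.247 and 0.315). Ccdc63 and Nr0b2 shared both of their closest genes. Tssk5, Prom2 and Igfbp5 are among the 17 unpicked coding genes that passed as lower in SCA1 mice.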

How the data were processed

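Reads of 24 cerebellar libraries were, per the labels and the methods, trimmed with Trimmomatic 0.36 and aligned with STAR 2.7.2d to GRCm38.p6. The authors deposited whole-number counts of fragments per gene, without normalization. Batch correction and DESeq2 (1.28.1) came after these counts. The unstranded counts were used. Gene identifiers were matched to GENCODE (54165 of 54232). The 7 genes and all gene lists were chosen with earlier results of these data known.

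The batch of each library was inferred by k-means clustering with 2 clusters and 50 starts (mean silhouette 0.634). In R 4.3.3, edgeR 4.0.16 was fitted to 22502 genes that passed its expression filter, with TMM factors of 0.944 to 1.056, genotype and batch as terms and robust quasi-likelihood estimation. A gene passed where its p, adjusted by Benjamini-Hochberg over these genes, was below 0.01 and its log2 fold change was beyond 0.5 in size. The SE is the log2 fold change over the root of the F statistic, and intervals use the t distribution with the degrees of freedom of the fit. A prior count of 2 was used for log2 CPM. Counting error is limited by the fragments behind each gene, and PCR copies are not independent molecules. Mice of 1 genotype differed beyond counting error. The p-values set a difference between group means against the spread between mice within groups. That spread was estimated over all 6 groups of genotype and batch, with information shared across genes. Replicates were numbered in the order of record.

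Besides the 7 genes and Atxn1, the text names the nearest tested gene on each side, genes of 9 lists that passed or else the 2 most abundant, and the 2 coding genes with the most similar profile. Genes singled out beyond this (Il20ra, the list genes called between batches, and the called genes around the picked ones) were chosen after their values were seen. The lists were unconventional myosins, Myo15 partners, class II cytokine receptors, carbonic anhydrases, genes induced by low oxygen, Nr0b2 partners, Ras GTPase-activating proteins, the Munc13 family and outer dynein arms. Alternatives were DESeq2 1.42.0, ComBat-seq (sva 3.50.0), other filters, scaling, strand and batch handling, and leaving out each mouse. The code was tested on simulated data. The files hold 1 further feature, not reported here.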

Additional observations from a re-analysis of the deposited data

Results flagged for a closer look

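Of 42 groups examined (each of the 7 genes in 6 groups of 4 mice), 1 held a mouse far from the others, where about 2.1 are flagged by chance. In SCA1 mouse 2, Il20rb stood at 5.07 on the log2 CPM scale, while the other 3 SCA1 mice lay between 5.36 and 5.40. The gap to the nearest mouse was 0.878 of the range of the group and passed Dixon's 95% limit.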

How the results depend on the processing

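No paired analysis was possible because the labels hold no replicate numbers that would link mice across genotypes. Leaving out each mouse in turn, the median log2 fold change of the 7 genes in SCA1 mice was between -1.10 and -0.99. The median difference between the WT mice of the batches was between -0.31 and -0.23. The median share kept was between 45.8% and 59.2% in SCA1 S776A and between 57.1% and 83.4% in S776A double mice. In these fits 0 of the 7 genes passed in the 3 tests whose fold changes use no SCA1 mouse and no WT mouse of batch 1. ComBat-seq followed by DESeq2 called 2 genes between S776A double and SCA1 S776A mice, 99 between WT S776A homozygous and WT mice, and 35 for the difference of these effects, none of them among the 7, and the cause was not tested. Without the batch term, which sets each genotype against both batches of WT mice, the median share kept in SCA1 S776A mice was 32.8%. On linear CPM the median shares were 63.2% and 77.5%. Counts of 1 strand, which hold fewer fragments, put the Nr0b2 share in SCA1 S776A mice at 100%. Signs that turned belonged to values that did not pass. With counts of 1 strand, S776A double against SCA1 S776A gave 0.28 for Nr0b2 and 0.019 for Ccdc63, WT S776A homozygous against WT gave 0.068 for Car9, and the difference of effects gave 0.058 for Nr0b2. Without the batch term, WT S776A homozygous against WT gave -0.20 for Il20rb, and the difference of effects gave 1.11 for Myo15, 0.014 for Car9 and 0.32 for Rasal1. With single mice left out, S776A double against SCA1 S776A ranged from -0.28 to 0.030 for Nr0b2 and from -0.19 to 0.023 for Ccdc63, WT S776A homozygous against WT from -0.087 to 0.0062 for Car9 and from -0.055 to 0.19 for Ccdc63, and the difference of effects from -0.20 to 0.074 for Rasal1 and from -0.29 to 0.0074 for Myo15. The causes were not tested.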
